A study of Mus musculus with 6 samples.

Results

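Inhibitory checkpoint genes are described here in CD4+ T cells that were kept with icilin or with its solvent. The group holds 10 genes, chosen by name from the brakes on T cell activation: Ctla4, Pdcd1, Cd274, Lag3, Havcr2, Tigit, Btla, Cd160, Cd200 and Cd96. All 10 were among the 22180 genes that the arrays measured under a single symbol, and each was read by 1 probe set, the set of short DNA probes whose signals are summarised into 1 value. Most of the 10 encode receptors on the T cell itself. Cd274 encodes PD-L1, the ligand of the PD-1 receptor, and Cd200 encodes the ligand of the receptor CD200R, so the label of receptors fits these 2 genes less well.

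The cells were CD4+ T cells purified from the spleens of female wild-type C57BL/6 mice about 8 weeks old. All of them had been stimulated for 24 h with antibodies to CD3 and CD28, each at 10 µg/mL, which act on the T cell receptor complex and on its main costimulatory receptor. The 3 icilin samples were then held for another 24 h with 100 µM icilin, a synthetic cooling agent dissolved in dimethyl sulfoxide (DMSO). The 3 vehicle samples were held for the same time with DMSO alone, and cells of the same 3 mice served both groups. No unstimulated sample was analysed here, so both groups show cells after strong activation.

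Checkpoint receptors are proteins that T cells bring to their surface mainly after activation, and they damp the signals that started that activation. CTLA-4 competes with CD28 for the ligands CD80 and CD86, while PD-1, TIGIT, BTLA and others carry short tyrosine motifs in their tails that recruit phosphatases. Their transcription in T cells depends in large part on signals from the antigen receptor, among them the calcium-regulated factor NFAT. Icilin opens the calcium-permeable channels TRPM8 and TRPA1.

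Values are log2 levels made by the authors with RMA, a method that corrects the background of each array, brings the arrays to a common distribution and summarises the probes of a probe set. A difference of 1 is a doubling, and levels of different genes are not compared, since each probe set has its own brightness. Differences are icilin minus vehicle. A gene is said to have fallen or risen where limma, a linear model fitted across all 22180 genes, gave a Benjamini-Hochberg adjusted p under 0.1 and the change was at least 1.5-fold, the limits that the study used. The 6 arrays were alike: across genes, which are not independent replicates, r was 0.996 within groups and 0.994 between them. All 8 measured CD4 T cell markers were brighter than the median gene and 0 rose or fell, with differences of -0.07 for Cd3e, a chain of the receptor complex, and 0.03 for Cd4. Zap70, the kinase gene of that complex, was lower with icilin (-0.33, adjusted p = 0.0403 by limma), short of 1.5-fold. The p-values set each difference against the spread between these 6 samples. The fit treats the 6 as independent, although they came from 3 mice.

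Ctla4 was the checkpoint gene that fell. Its log2 level was 8.44, 8.49 and 8.40 in icilin cells, against 9.10, 9.19 and 9.13 in vehicle cells. Every icilin array lay below every vehicle array, and the gap was far wider than the spread inside either group. The means were 8.45 ± 0.05 with icilin and 9.14 ± 0.05 with vehicle (SD, n = 3 each), a log2 fold change of -0.69 ± 0.06 (SE; 95% interval -0.84 to -0.54; limma adjusted p = 0.00277). Icilin cells thus kept 61.8% of the vehicle level. Leaving out any 1 array gave -0.72 to -0.67, with adjusted p between 0.0139 and 0.0206. In bulk RNA, fewer Ctla4-expressing cells and less Ctla4 RNA per cell cannot be told apart.

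Across the 10 genes the fall of Ctla4 was 1 call (10 genes, 1 lower, 0 higher), beside 1.40% of all genes called, 1.03% lower and 0.370% higher. Without the fold limit, 4 of the 10 passed the adjusted p, all lower with icilin (Ctla4, Cd96, Cd160 and Cd200), where 3.00% of all genes passed lower and 2.27% higher. That count was 1 with the replicate number as a block, where Cd96 (adjusted p = 0.130), Cd160 (0.120) and Cd200 (0.142) did not pass, and 1 to 3 with an array left out. Both groups came from the same 3 mice, but the labels do not tie replicate numbers to mice. In 7 of the 10 the icilin arrays lay entirely below the vehicle arrays and in 0 entirely above, against 24.1% of all genes without overlap, 10.5% lower and 13.6% higher. The median log2 fold change of the 10 was -0.20, and that of all genes was 0.01. Only 2 of the 10 were dimmer than the median gene, and the median SE of the 10 was 0.077, against 0.091 for all genes. The shares above are over all genes, bright and dim, so they are not taken from genes of like brightness and precision.

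**Figure D1:**
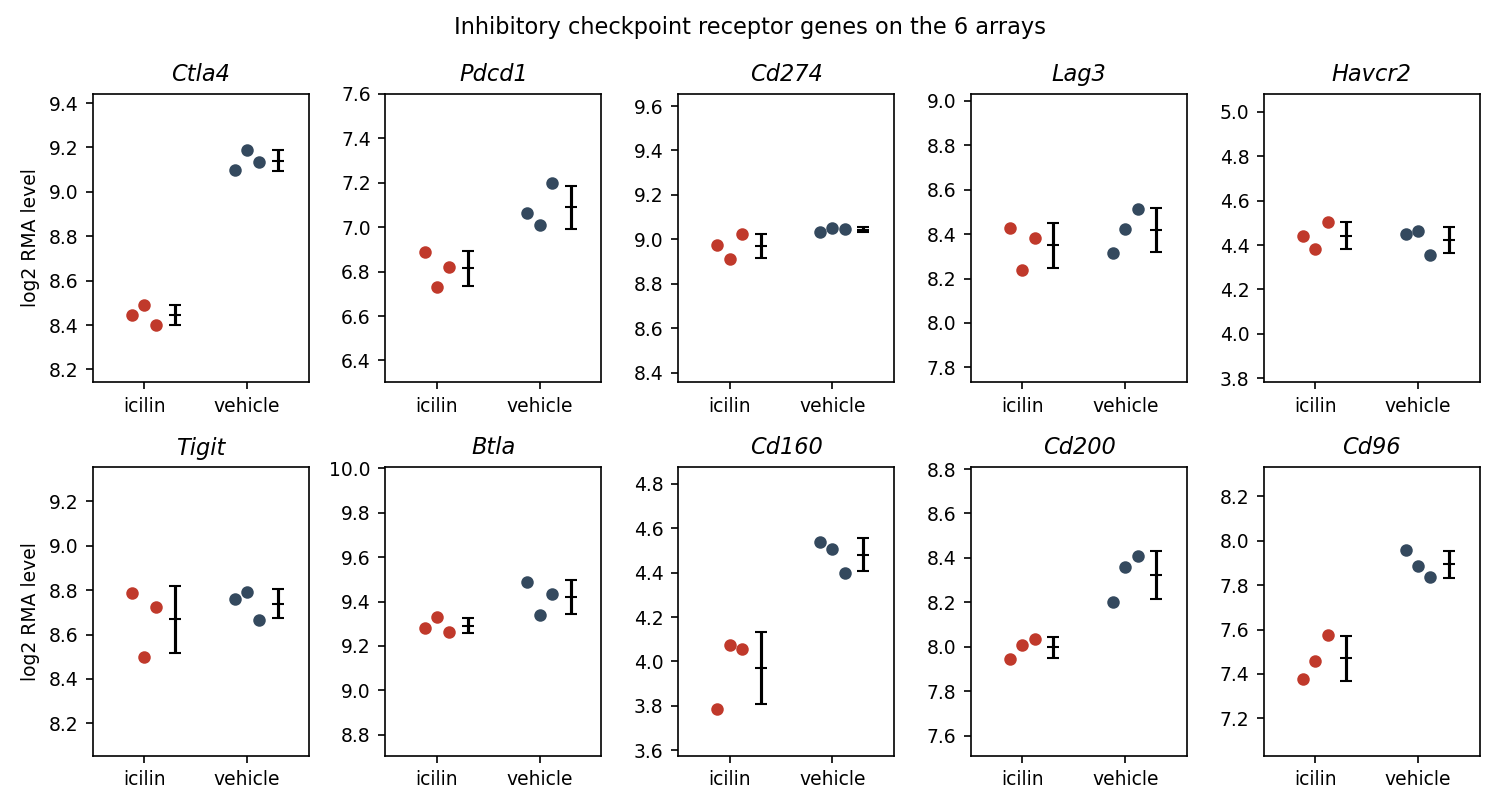
Log2 RMA levels of the 10 checkpoint genes, 1 panel a gene, with the 3 icilin arrays left and the 3 vehicle arrays right in each panel. Dots are arrays, the bars beside them are mean and SD, and all panels span the same log2 range. Ctla4 shows the widest gap of the 10 (8.45 against 9.14), Cd96, Cd160 and Cd200 show smaller gaps, and the groups overlap in Lag3, Havcr2 and Tigit.

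The start region of Ctla4 is shown because this gene carries the main result, and NFAT, which acts downstream of calcium in T cells, binds the core letters GGAAA. The line gives the 250 bases before the RefSeq start on mouse build GRCm38.p6, chr1:60908775-60909024, plus strand, written 5′ to 3′. Capitals mark each match to GGAAA or, on the other strand, TTTCC.
Ctla4: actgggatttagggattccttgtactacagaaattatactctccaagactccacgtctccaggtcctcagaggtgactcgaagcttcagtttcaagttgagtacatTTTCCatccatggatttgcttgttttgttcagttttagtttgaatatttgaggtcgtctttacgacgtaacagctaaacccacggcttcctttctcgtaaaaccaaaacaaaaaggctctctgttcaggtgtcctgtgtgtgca
It held 1 such match. Of 32817 distinct RefSeq start regions of the same length, 55.6% held at least 1 match, so a match of this kind is common. ACGTG, the core letters of the hypoxia response element, was searched on both strands (CACGT on the other) and occurred 1 time in Ctla4 and in 16.6% of all regions. The AP-1 letters TGANTCA, which read the same on both strands, were absent from this window and present in 6.75% of all. RefSeq start regions were found for 9 of the 10 genes, with Lag3 as the exception, and these 9 had 10 regions because Cd160 has 2. GGAAA was present in 6 of these 10 regions, ACGTG in 4 and TGANTCA in 1. These matches describe letters only.

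Ctla4 differed from the genes beside it. Ctla4 lies on chromosome 1 in a cluster with Icos and Cd28, which encode stimulatory members of the same receptor family. In RefSeq, 0 protein-coding genes separate Ctla4 from either of them. Cd28 stood at 9.43, 9.38 and 9.48 in icilin cells, against 9.18, 9.03 and 9.06 in vehicle cells. The icilin arrays were thus all higher, by 0.34 ± 0.07 (SE), with an adjusted p of 0.0529 by limma and a change short of 1.5-fold. The adjusted p exceeded 0.1 when any 1 array other than vehicle replicate 1 was left out (0.126 to 0.172; difference 0.31 to 0.36).

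Icos had levels of 8.50, 8.54 and 8.45 with icilin and 8.38, 8.43 and 8.36 with vehicle. Its arrays separated by a narrow margin (difference 0.11, 95% interval -0.04 to 0.25; limma adjusted p = 0.445). Of the 10 annotated features nearest to Ctla4, 5 on each side, Icos was the 1 measured under its own symbol. The others are pseudogenes and long noncoding RNAs.

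The log2 difference between Ctla4 and Cd28 within an array was -0.98, -0.89 and -1.08 in icilin cells, against -0.08, 0.16 and 0.07 in vehicle cells. It was lower on every icilin array, and its means of -0.99 ± 0.09 and 0.05 ± 0.12 (SD, n = 3 each) differ by -1.04, a 2.05-fold shift of Ctla4 relative to Cd28. An exact two-sided permutation test gave p = 0.1, the smallest value that 20 splits of 3 against 3 arrays can give. With Ctla4 lower and Cd28 higher on every icilin array, no other p was possible, so the test adds no support. Such a difference shows that the changes of both genes were unequal. For Ctla4 minus Icos, a pair chosen after its values were seen, the means were -0.05 ± 0.01 and 0.75 ± 0.03, a shift of -0.80 (exact permutation p = 0.1, fixed in the same way). CD80 and CD86, the ligands that CTLA-4 and CD28 share, had differences of -0.15 (Cd80, adjusted p = 0.488 by limma) and 0.17 (Cd86, adjusted p = 0.294).

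**Figure D2:**
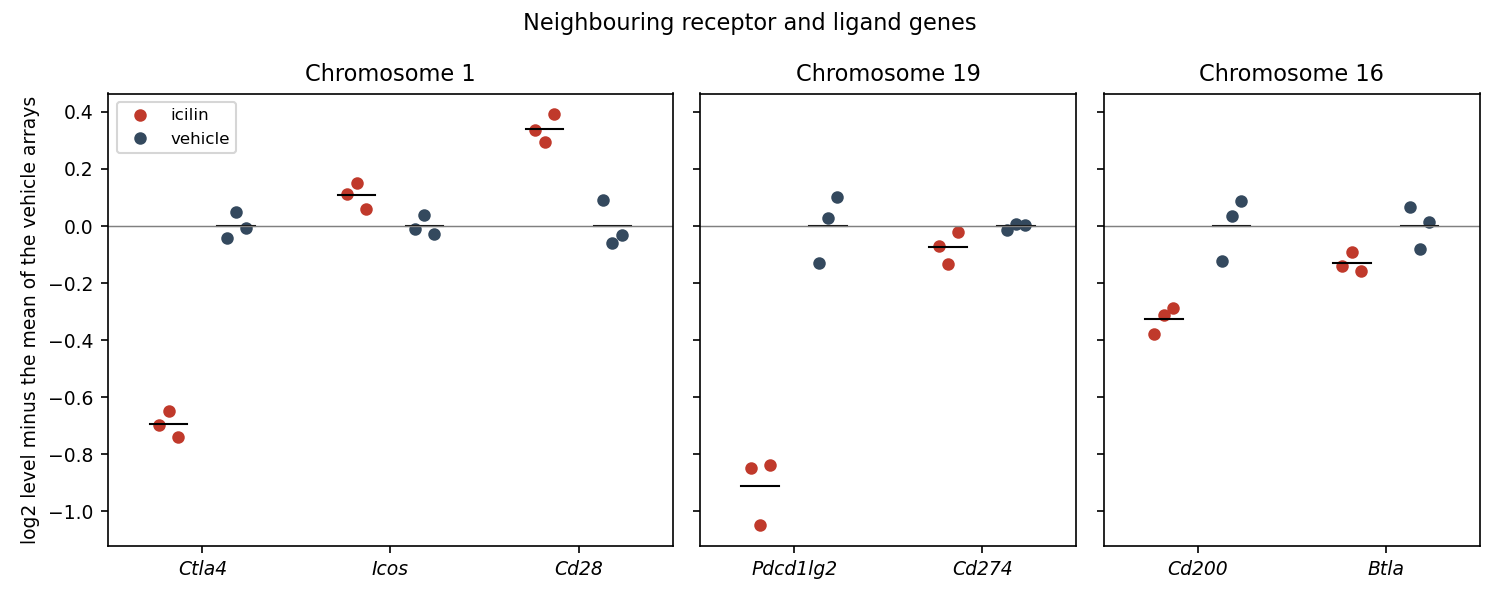
Log2 levels of neighbouring genes, each minus the mean of its 3 vehicle arrays, with icilin arrays left and vehicle arrays right for every gene. Dots are arrays and short bars are group means. On chromosome 1 the icilin arrays of Ctla4 lie near -0.69, those of Icos near 0.11 and those of Cd28 near 0.34, and on chromosome 19 Pdcd1lg2 lies near -0.91 beside Cd274 near -0.07.

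Genes whose values over the 6 arrays followed those of Ctla4 most closely were named by Pearson r among 11089 genes brighter than the median gene. They were Tg, the thyroid hormone precursor gene (r = 0.999), Rasgrp4, an activator of Ras (0.998), and Emilin2, an extracellular matrix gene (0.998). All 3 were lower with icilin, by -0.52, -1.48 and -0.58. With 2 groups of 3 arrays such an r mostly reflects a gap between the groups, and 377 genes had an r over 0.95.

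Regulatory T cells hold much Ctla4 RNA, so their markers are given beside it. Of 10 such markers 0 rose or fell by limma, with 3 lower and 1 higher at an adjusted p under 0.1 without the fold limit. Foxp3, the defining transcription factor, stood at 8.15, 8.30 and 8.40 with icilin and 7.98, 8.03 and 7.96 with vehicle. It was thus on the higher side in icilin cells, by 0.29 ± 0.08 (SE; limma adjusted p = 0.126), opposite in sign to Ctla4. The marker with the smallest p was Capg, an actin-capping protein gene (-0.56, adjusted p = 0.00723). The summed linear level of the list, on a log2 scale, was 12.57 to 12.60 in icilin cells and 12.69 to 12.71 in vehicle cells. Bright probe sets weigh most in such a sum, here Il2ra, the interleukin-2 receptor chain gene (-0.04), and Tnfrsf18, the gene of GITR (-0.38, adjusted p = 0.0206). Ikzf4 was lower on every icilin array (-0.47, limma adjusted p = 0.0216). Gpr83, a receptor gene of these cells (0.44, adjusted p = 0.0455), and Lrrc32, the gene of GARP (0.25, adjusted p = 0.239), were higher on every icilin array. The differences of 6 of the 10 markers were below 0 and those of 4 above, with a list median of -0.04. The part of these cells in the Ctla4 result was not tested.

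PD-1 and its ligands gave different results. Pdcd1, the gene of PD-1, had levels of 6.89, 6.73 and 6.82 in icilin cells, against 7.06, 7.01 and 7.20 in vehicle cells. The arrays of the groups did not overlap, but the difference of -0.28 ± 0.08 (SE; 95% interval -0.46 to -0.09) had an adjusted p of 0.136 by limma and did not pass. Its adjusted p was 0.0362 with an intensity trend and robust variances and 0.0352 with dim genes left out, still short of 1.5-fold. Cd274, the gene of the ligand PD-L1, stood at 8.97, 8.91 and 9.02 with icilin and at 9.03, 9.05 and 9.05 with vehicle. These groups nearly touched, and the difference was -0.07 (95% interval -0.22 to 0.07; adjusted p = 0.611), so a change of 1.5-fold lies outside the interval.

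Pdcd1lg2, which encodes PD-L2, the other ligand of PD-1, fell. Its levels were 7.28, 7.08 and 7.29 in icilin cells, against 8.00, 8.15 and 8.23 in vehicle cells. All icilin arrays were far below, and the log2 fold change was -0.91 ± 0.09 (SE; limma adjusted p = 0.00406). Without any 1 array it stayed called, at -0.97 to -0.84. Cd274 and Pdcd1lg2 lie side by side on chromosome 19, with 0 protein-coding genes and 1 other annotated gene between them in RefSeq. The log2 difference of Pdcd1lg2 minus Cd274 averaged -1.76 ± 0.07 with icilin and -0.92 ± 0.11 with vehicle (SD, n = 3 each), a shift of -0.84. For this pair, chosen after its values were seen, the exact permutation test gave p = 0.1, its smallest possible value.

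The start regions of this pair are shown because neighbours with unequal changes invite a look at both. They are the 250 bases before the RefSeq start of Pdcd1lg2, chr19:29410669-29410918, and of Cd274, chr19:29367188-29367437, both on the plus strand of GRCm38.p6 and marked as above.
Pdcd1lg2: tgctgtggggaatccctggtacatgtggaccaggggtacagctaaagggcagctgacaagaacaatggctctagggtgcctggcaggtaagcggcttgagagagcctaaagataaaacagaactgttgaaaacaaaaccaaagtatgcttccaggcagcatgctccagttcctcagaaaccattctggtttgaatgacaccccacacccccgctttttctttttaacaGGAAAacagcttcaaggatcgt
Cd274: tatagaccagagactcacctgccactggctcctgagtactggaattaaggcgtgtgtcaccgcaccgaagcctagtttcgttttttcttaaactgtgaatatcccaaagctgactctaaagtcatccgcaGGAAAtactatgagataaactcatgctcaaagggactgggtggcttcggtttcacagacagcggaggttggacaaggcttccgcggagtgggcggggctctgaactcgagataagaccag
Each held 1 match to GGAAA, and neither held ACGTG or TGANTCA.

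TIGIT and CD96 are receptors that bind the poliovirus receptor CD155 and related nectins, which they share with the stimulatory receptor CD226. Cd96 was lower with icilin, at 7.38, 7.46 and 7.58, against 7.96, 7.89 and 7.84 with vehicle. No arrays overlapped, and the difference of -0.42 ± 0.08 (SE; 95% interval -0.60 to -0.24) passed the adjusted p of limma (0.0331) but stayed short of 1.5-fold. Removing icilin array 1, icilin array 2 or vehicle array 2 took its adjusted p above 0.1 (0.115 to 0.119; difference -0.43 to -0.38). Tigit had levels of 8.79, 8.50 and 8.72 in icilin cells, against 8.76, 8.79 and 8.67 in vehicle cells. Its groups overlapped, with a difference of -0.07 (95% interval -0.29 to 0.15; adjusted p = 0.757) whose sign changed when icilin replicate 2, the lowest array, was left out (0.02).

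Cd226, the stimulatory partner, stood at 7.81, 7.90 and 7.92 with icilin and 7.61, 7.74 and 7.69 with vehicle. Its arrays were higher with icilin without overlap, by 0.20 ± 0.07 (SE; limma adjusted p = 0.212). The log2 difference of Cd96 minus Cd226, chosen after its values were seen, averaged -0.41 ± 0.05 with icilin and 0.21 ± 0.12 with vehicle (SD, n = 3 each), a shift of -0.62 (exact permutation p = 0.1, the smallest possible). That p was fixed once Cd96 was lower and Cd226 higher on every icilin array. Among their shared ligands, Pvr, the CD155 gene, had a difference of -0.20 (adjusted p = 0.193) and Nectin2 one of -0.24 (adjusted p = 0.299).

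Start regions of Cd96 and Cd200 are shown as those of the other bright genes below the adjusted p limit, with the same marks. Cd96 lies at chr16:46120249-46120498 and Cd200 at chr16:45409054-45409303, both on the minus strand of GRCm38.p6, and the lines give the 250 bases before each RefSeq start.
Cd96: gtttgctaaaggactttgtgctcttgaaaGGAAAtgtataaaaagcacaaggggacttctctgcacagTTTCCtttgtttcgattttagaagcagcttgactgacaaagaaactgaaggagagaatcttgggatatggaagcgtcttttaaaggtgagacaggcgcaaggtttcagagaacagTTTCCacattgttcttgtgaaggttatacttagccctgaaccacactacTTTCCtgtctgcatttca
Cd200: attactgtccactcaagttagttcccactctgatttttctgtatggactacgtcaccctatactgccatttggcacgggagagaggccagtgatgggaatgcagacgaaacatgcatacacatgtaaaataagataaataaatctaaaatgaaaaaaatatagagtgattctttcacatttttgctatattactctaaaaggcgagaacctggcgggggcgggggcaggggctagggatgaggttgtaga
Cd96 held 4 matches to GGAAA, a number reached by 1.58% of all regions of this length, and Cd200 held 0. The count of Cd96 was the highest among the 10 regions searched, and the share of 1.58% does not allow for that. Neither held ACGTG or TGANTCA.

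BTLA and CD160 both bind the TNF receptor family member HVEM, encoded by Tnfrsf14. Cd160 was dim, below the brightness of the median gene, with levels of 3.78, 4.07 and 4.05 in icilin cells, against 4.54, 4.51 and 4.40 in vehicle cells. Icilin arrays were all lower, by -0.51 ± 0.10 (SE; 95% interval -0.74 to -0.28; limma adjusted p = 0.0383), short of 1.5-fold. The adjusted p was above 0.1 without vehicle replicate 1 (0.115) or vehicle replicate 2 (0.134). Btla stood at 9.28, 9.33 and 9.26 with icilin and at 9.49, 9.34 and 9.43 with vehicle. The groups nearly touched, and the difference of -0.13 (95% interval -0.29 to 0.03) did not pass (adjusted p = 0.394). Tnfrsf14 had a difference of 0.06 (adjusted p = 0.688).

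Cd160 and Cd96 are also expressed by natural killer and CD8 T cells. Of 9 measured markers of those cells 0 rose or fell, and 1 passed the adjusted p without the fold limit, the lectin receptor gene Klrd1 (-0.27, adjusted p = 0.0843 by limma). Of the 9 markers, 8 were dimmer than the median gene, among them Ncr1 and Cd8a. The brighter one, the CD8 chain gene Cd8b1, stood at 7.08, 6.63 and 6.88 with icilin and 6.51, 6.55 and 6.35 with vehicle, higher on every icilin array (0.39, adjusted p = 0.167). RMA levels have no true 0, so absence cannot be read from them. The summed level of the list was 7.71 to 7.91 in icilin cells and 7.67 to 7.71 in vehicle cells on the log2 scale. Cd8b1 weighs most in that sum. The differences of 6 of the 9 markers were below 0 and those of 3 above, with a list median of -0.08. Klrb1c was lower on every icilin array (-0.52, limma adjusted p = 0.1345). The part of these cells in the results for Cd160 and Cd96 was not tested.

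Cd200 encodes a membrane glycoprotein that restrains myeloid cells through CD200R. It had levels of 7.94, 8.01 and 8.04 in icilin cells, against 8.20, 8.36 and 8.41 in vehicle cells. The groups did not overlap, and the difference was -0.33 ± 0.08 (SE; 95% interval -0.51 to -0.14; limma adjusted p = 0.0812), short of 1.5-fold. The adjusted p was above 0.1 without any 1 array other than vehicle replicate 1 (0.168 to 0.227). Cd200 and Btla are neighbours on chromosome 16, which carries 4 of the 10 genes, and Cd200 minus Btla, chosen after its values were seen, shifted by -0.20 (exact permutation p = 0.2). The receptor gene Cd200r1 had a difference of -0.09 (adjusted p = 0.713). B cells and follicular helper T cells express Cd200 as well. Of 9 B cell markers 1 rose, Ms4a1 (1.01), and 0 fell, with a summed level of 7.73 to 7.78 with icilin and 7.63 to 7.72 with vehicle. The differences of 4 of these markers were below 0 and those of 5 above, with a list median of 0.05. Ebf1 was lower on every icilin array (-0.73, limma adjusted p = 0.1275). Of 8 follicular helper markers 0 rose or fell, and the 1 with the smallest p was the transcription factor gene Ascl2 (-0.47, adjusted p = 0.0390). Il6ra went the other way, higher on every icilin array (0.25, limma adjusted p = 0.2115). The differences of 5 of these 8 markers were below 0 and those of 3 above, with a list median of -0.10. The summed level of the follicular helper list was 9.20 to 9.33 with icilin and 9.26 to 9.39 with vehicle. The part of these cells in the Cd200 result was not tested.

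LAG-3 is a CD4-like receptor that binds MHC class II, and TIM-3, encoded by Havcr2, is a receptor of terminally differentiated effector cells. Lag3 had levels of 8.43, 8.24 and 8.38 in icilin cells, against 8.32, 8.42 and 8.51 in vehicle cells. The groups overlapped, and the difference was -0.07 (95% interval -0.27 to 0.13; limma adjusted p = 0.741). Its neighbour Cd4, with 0 annotated genes between them, had a difference of 0.03. Havcr2 was dimmer than the median gene, as Cd160 was, at 4.44, 4.38 and 4.50 with icilin and 4.45, 4.46 and 4.36 with vehicle. It was the 1 gene of the 10 with a positive difference, 0.02 (95% interval -0.14 to 0.18; adjusted p = 0.919), and its sign turned without icilin replicate 3 or without vehicle replicate 3 (-0.01 each). For both genes the interval leaves out a 1.5-fold change in either direction. RMA compresses changes of dim genes, so the interval of Havcr2 may understate a change.

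**Figure D3:**
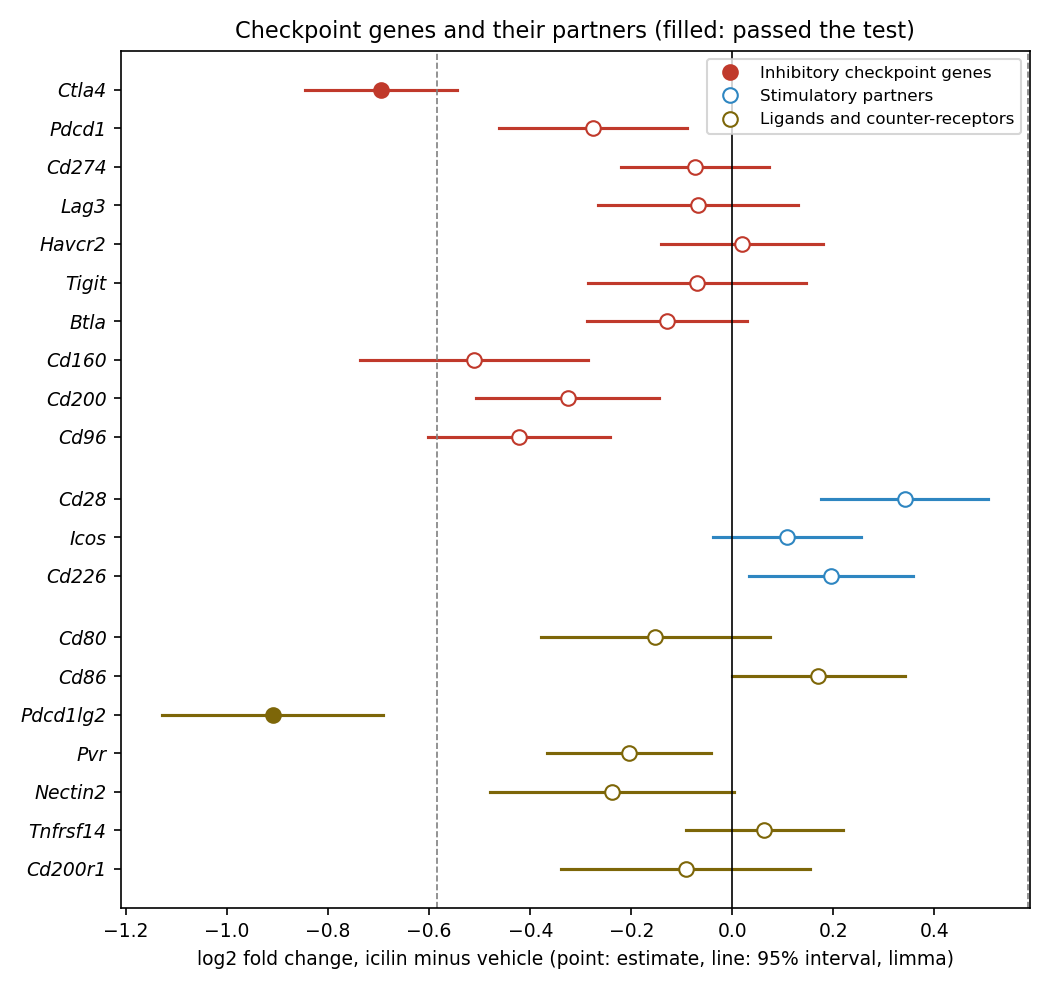
Log2 fold changes (icilin minus vehicle) of the 10 checkpoint genes, 3 stimulatory partners and 7 ligands or counter-receptors. Points are limma estimates, lines are 95% intervals, dashed lines mark 1.5-fold and filled points passed the test. Ctla4 at -0.69 and Pdcd1lg2 at -0.91 are filled. The stimulatory partners Cd28, Icos and Cd226 lie right of 0, unfilled, and 9 of the 10 checkpoint genes lie left of it. Of all genes 47.03% had a difference below 0. Among the partners and checkpoint genes, the intervals of Icos, Cd274, Lag3, Havcr2, Tigit and Btla cross 0. In the wider list of 15 stimulatory genes, 10 differences were below 0 and 5 above.

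Genes around the checkpoint receptors were read as 5 lists with 90 measured genes, of which 8 fell and 2 rose, beside 1.03% of all genes called lower and 0.370% called higher. Of 16 ligands and counter-receptors, 3 fell and 0 rose, with a list median of -0.11. Besides Pdcd1lg2 they were H2-Ab1, an MHC class II chain bound by LAG-3 and CD4, and Lgals3, a galectin gene. H2-Ab1 stood at 8.96 ± 0.08 in icilin cells and 10.19 ± 0.11 in vehicle cells (SD, n = 3 each; -1.22, limma adjusted p = 0.000927), and Lgals3 at 5.52 ± 0.11 and 6.32 ± 0.10 (-0.80, adjusted p = 0.00463). The other class II chain genes of the list, H2-Aa (-0.04, adjusted p = 0.849) and H2-Eb1 (-0.01, adjusted p = 0.974), overlapped between the groups. In T cell samples MHC class II RNA can also come from antigen-presenting cells. Of 8 measured dendritic cell markers 0 rose or fell, and 7 were dimmer than the median gene. The summed level of the 8 was 9.03 to 9.22 with icilin and 9.13 to 9.31 with vehicle. That sum is mostly the bright Cd209a (-0.14, limma adjusted p = 0.505), so it says little of the others. The differences of 6 of the 8 were below 0 and those of 2 above, with a list median of -0.12. Clec10a, a lectin gene, had the smallest p on that list (0.20, adjusted p = 0.249). Of 10 myeloid markers Mpeg1 rose (0.75, adjusted p = 0.0581). That call was lost when any one of icilin arrays 1 and 3 and vehicle arrays 1 and 3 was removed (log2 fold change 0.63 to 0.76, adjusted p of 0.152 to 0.163). The summed level of the myeloid list was 7.37 to 7.51 with icilin and 7.40 to 7.53 with vehicle. Cd68 weighs most in it (-0.26, limma adjusted p = 0.239), and 4 of the 10 differences were below 0 and 6 above. The part of either cell type in the ligand results was not tested.

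Of 15 genes listed as paired stimulatory receptors, 3 fell and 0 rose, with a median of -0.15. The list is broader than its name. It holds the ligand genes Tnfsf14 and Cd40lg, and not only direct partners of the checkpoint genes. Tnfrsf9, the gene of 4-1BB, fell by 1.02 on the log2 scale (10.43 ± 0.08 with icilin and 11.45 ± 0.03 with vehicle; adjusted p = 0.00102 by limma). Crtam, a receptor of activated cytotoxic cells, had levels of 4.96, 4.97 and 5.56 in icilin cells, against 6.04, 6.06 and 6.14 in vehicle cells, with icilin replicate 3 closest to the vehicle arrays. Its fall of -0.92 (adjusted p = 0.0311) did not pass when any one of icilin arrays 1 and 2 and vehicle arrays 2 and 3 was removed (log2 fold change -0.93 to -0.82, adjusted p of 0.107 to 0.116). Tnfsf14, the gene of LIGHT, a ligand of HVEM, fell by 0.61 (adjusted p = 0.0140), but its change was below 1.5-fold without vehicle replicate 1 or 3 (-0.58 to -0.56). Without vehicle replicate 3 the list held 1 call, against 3 with all arrays.

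Of 13 other inhibitory receptors and ectoenzymes, 1 fell and 0 rose, with a median of -0.11. The gene was Lilrb4a, an inhibitory immunoglobulin-like receptor, at 10.23 ± 0.12 in icilin cells and 11.02 ± 0.06 in vehicle cells (-0.79, limma adjusted p = 0.00450). Of 23 genes for signalling and trafficking of checkpoint receptors, 1 rose and 0 fell, with a median of -0.01. It was Trat1, which encodes TRIM, an adaptor that has been linked to transport of CTLA-4 to the cell surface, and it stood at 9.45 ± 0.04 with icilin and 7.73 ± 0.08 with vehicle (1.72, adjusted p = 0.000623). Among genes of the list with a part in CTLA-4 transport or recycling, chosen after their values were seen, differences were -0.07 (Lrba), -0.04 (Def6), 0.04 (Rab11a), -0.04 (Lax1), 0.00 (Ap1m1) and -0.01 (Ap2m1).

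Of 23 transcription factors with a part in checkpoint gene expression, 1 fell and 1 rose, with a median of -0.06. Nr4a2, an orphan nuclear receptor induced by antigen receptor signals, had levels of 6.97, 7.14 and 6.98 in icilin cells, against 7.90, 7.95 and 7.86 in vehicle cells (-0.87, limma adjusted p = 0.00201). Eomes, a T-box factor of effector and memory cells, stood at 4.95 ± 0.03 with icilin and 4.28 ± 0.09 with vehicle (SD, n = 3 each; 0.67, adjusted p = 0.00424). Both pairs of groups were well apart. Among NFAT genes, chosen after their values were seen, Nfatc1 had a difference of -0.03 (adjusted p = 0.840) and Nfatc2 one of -0.24 (adjusted p = 0.233).

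**Figure D4:**
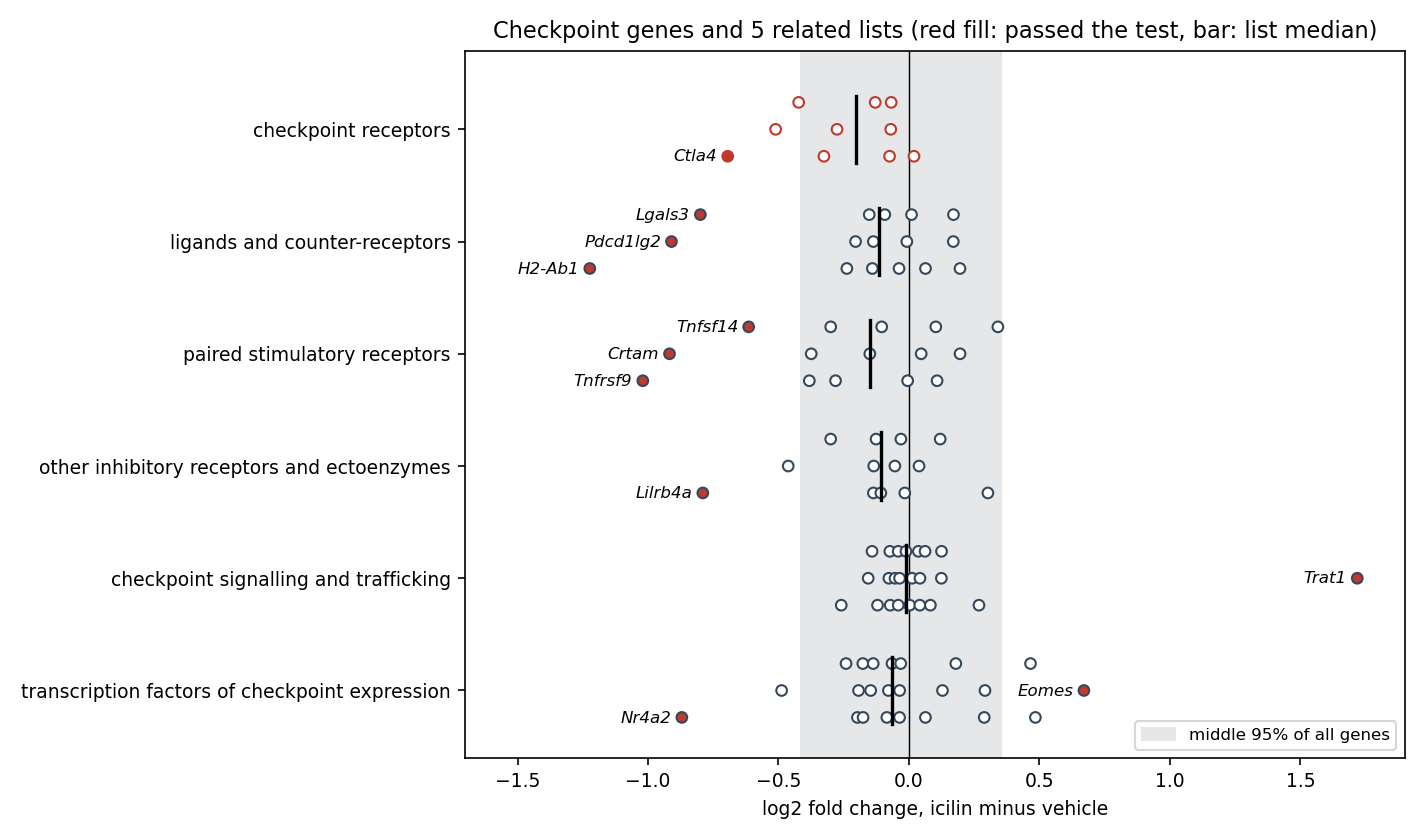
Log2 fold changes (icilin minus vehicle) of each measured gene of the checkpoint group and of 5 related lists, 1 row a list. Circles are genes, vertical bars are list medians, red filled circles passed the test and are named, and the grey band holds the middle 95% of all 22180 genes (-0.41 to 0.35). Of the checkpoint genes, Ctla4, Cd160 (-0.51) and Cd96 (-0.42, close to the edge) lie left of the band, and of these Ctla4 passed the test. Of the named genes in the other lists, H2-Ab1, Pdcd1lg2, Lgals3, Tnfrsf9, Crtam, Tnfsf14, Lilrb4a and Nr4a2 lie left of it. Trat1 and Eomes lie right of it.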

How the data were processed

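Each of the 6 samples gave 0.25 µg of RNA for 1 Affymetrix Mouse Gene 2.0 ST array. Per the labels' design text, the authors deposited log2 values made by RMA, and no step of that was redone. RMA makes array distributions alike and compresses changes of dim genes. The array annotation gave 1 symbol to 23521 of 41345 probe sets, several to 1814 and none to 16010. Of the first kind, the brightest probe set of each gene was kept, which left 22180 genes.

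Under R 4.3.3, limma 3.58.1 fitted each gene with lmFit and eBayes, without trend or robust option, and gave two-sided p-values on 4 residual plus 3.07 prior degrees of freedom, with Benjamini-Hochberg adjustment over all genes. SAM, the study's test, was rewritten for this work as an alternative. Fits were tested on simulated data. Precision is limited by the 3 arrays a group, with a median SE of 0.09. Per-array differences of 2 genes were tested by exact permutation. Python 3.11.15, pandas 2.3.3 and matplotlib 3.10.9 were used for figures.

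The genes, lists and tests were chosen with earlier results of these data known. Named genes were the 10 checkpoint genes, their partners, called genes of each list (otherwise that with the smallest p), neighbours of Ctla4 and the 3 genes most like it. Start regions are from RefSeq (GRCm38.p6), and the array annotation is of a build not given in the sources used here. Some listed genes, among them Pvrig, Adora2a, Lck, Tcf7, Cd247, Klra4 and Clec9a, were not analysed here.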

Additional observations from a re-analysis of the deposited data

How the results depend on the processing

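Ctla4 was the 1 checkpoint gene called in each of the 14 fits run with the fold limit: intensity trend with robust variances, centring on the array median, quantile normalization, dim genes left out, mean of probe sets, SAM, the replicate number as a block with limma and with SAM, and each array left out. Its log2 fold change stayed between -0.72 and -0.67, and all genes called numbered 267 to 331. Without a fold limit, 1170 genes passed an adjusted p under 0.1 (4 of them checkpoint genes) and 734 an adjusted p under 0.05 (3 checkpoint genes). The count of 4 checkpoint genes became 1 with the replicate block (2 with SAM and the block), and 1 to 3 with an array left out, where fewer samples were fitted. It was 5 with an intensity trend, and 4 with dim genes left out, where Cd160 is not tested and Pdcd1 passes. The replicate numbers were not treated as pairs: deviations of same-numbered arrays from their group means correlated at -0.02 to -0.01, 0 of 6 arrays correlated best with their own number, and the labels do not tie numbers to the 3 mice. With the block 283 genes were called, Ctla4 had an adjusted p of 0.0298, and the shift of Ctla4 minus Cd28 was -1.04 (exact sign-flip p = 0.25, the smallest that 3 pairs allow). Mpeg1 was not called under either block fit. Left-out arrays gave -1.10 to -0.98 for that shift. SAM with the block and the counts without a fold limit across fits were added after seeing the data. Signal over background is not known per probe set, which limits what can be said of Cd160 and Havcr2.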

Other observations

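Several further genes of the same lists passed the adjusted p of limma without reaching 1.5-fold, and are named here after their values were seen. Lower in icilin cells were Vsir, the gene of the inhibitory receptor VISTA (-0.30, adjusted p = 0.0963), and Ptpn6, the gene of the phosphatase SHP-1 that inhibitory receptors recruit (-0.26, adjusted p = 0.0750). Batf, an AP-1 family factor, was at 7.53, 7.59 and 7.56 with icilin and 8.05, 8.05 and 8.04 with vehicle (-0.49, adjusted p = 0.00737), with little spread in either group. The TNF receptor family genes Tnfrsf18 (-0.38, adjusted p = 0.0206), Tnfrsf8 (-0.37, adjusted p = 0.0388) and Tnfrsf4 (-0.30, adjusted p = 0.0541) were lower as well. Higher in icilin cells were the transcription factor genes Irf1 (0.48, adjusted p = 0.0121) and Tbx21 (0.47, adjusted p = 0.0191) and the adaptor gene Pag1, which anchors the inhibitory kinase CSK (0.27, adjusted p = 0.0749).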
